A study of Homo sapiens with 12 samples.

Results

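The genes examined were 8 transcription factors that direct myeloid or T-cell development or are shared between myeloid and B cells, namely SPI1, CEBPA, CEBPB, CEBPD, GATA2, GATA3, TBX21 and TCF7, out of 26210 genes with a level in the RNA-Seq table. They were taken by their symbols. Total RNA was sequenced from 5 established cell lines. KM-H2, L1236 and L428 derive from classical Hodgkin lymphoma (cHL), in which the tumour cell, the Hodgkin/Reed-Sternberg cell, is a B cell that has lost most of its B-lineage programme. Namalwa, a Burkitt lymphoma line, and Reh, a pro-B acute lymphoblastic leukaemia line, represent non-Hodgkin B cells. Reh was also profiled after phorbol 12-myristate 13-acetate (PMA), an activator of protein kinase C, at 2 ng/ml. The cHL lines were cultured in IMDM and the control lines Namalwa and Reh in RPMI, so that medium and disease cannot be told apart. Each of the 6 groups had 2 libraries, numbered 0 and 1 in the table, and a line is a single tumour that has been kept in culture.

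PU.1, the product of SPI1, is an ETS-family factor that drives macrophage and granulocyte development at high dose and supports B-cell development at a lower dose. The C/EBP proteins are leucine-zipper factors: C/EBPα directs granulocyte commitment, while C/EBPβ and C/EBPδ serve emergency myelopoiesis and the inflammatory response of macrophages. GATA2 maintains blood stem cells and mast cells, GATA3 is required for T-cell development and for type 2 helper T (Th2) cells, T-bet (TBX21) specifies type 1 helper T (Th1) cells, and TCF-1 (TCF7) is the Notch-induced factor that starts the T-cell programme in the thymus. B cells normally hold PU.1 and silence GATA3 and TCF7.

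The cHL cell lines as a group differed from the control lines in 3 of the 6 factors that could be tested. Levels are FPKM, the fragments per kilobase of transcript scaled to the mapped fragments of the library. SPI1 was listed at 0 in all 6 cHL libraries and was present in every control library. GATA3 was present in every cHL library and close to 0 in every control library. TCF7 was high in KM-H2 and L1236 but not in L428. CEBPB was found in all 12 libraries with no difference that passed the test, TBX21 was low and varied from line to line, and CEBPA, CEBPD and GATA2 stayed below 3 FPKM in all libraries.

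The start regions of GATA3, TBX21 and CEBPB are printed because these genes show 3 of the patterns found: a gene present in all cHL lines and close to 0 in the controls, one that varied from line to line, and one present throughout. Each run is the 250 bases upstream of the start site given by RefSeq, on the strand of the gene, from sequence tabulated for GRCh38.p14 and placed on GRCh37 by an exact match. Capitals mark each GC box (GGGCGG or its complement), the letters bound by SP1-type factors.
GATA3, chr10:8096401-8096650, plus strand: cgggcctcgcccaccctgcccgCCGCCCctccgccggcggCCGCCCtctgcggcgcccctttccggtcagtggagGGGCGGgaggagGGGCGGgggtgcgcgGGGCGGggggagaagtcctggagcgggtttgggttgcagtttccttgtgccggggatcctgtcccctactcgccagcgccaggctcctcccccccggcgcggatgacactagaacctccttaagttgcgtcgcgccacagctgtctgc
TBX21, chr17:45810352-45810601, plus strand: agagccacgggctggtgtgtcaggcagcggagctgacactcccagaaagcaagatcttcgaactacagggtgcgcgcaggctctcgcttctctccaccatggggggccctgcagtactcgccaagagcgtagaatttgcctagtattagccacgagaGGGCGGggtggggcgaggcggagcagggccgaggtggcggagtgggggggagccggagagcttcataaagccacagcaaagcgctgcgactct
CEBPB, chr20:48807117-48807366, plus strand: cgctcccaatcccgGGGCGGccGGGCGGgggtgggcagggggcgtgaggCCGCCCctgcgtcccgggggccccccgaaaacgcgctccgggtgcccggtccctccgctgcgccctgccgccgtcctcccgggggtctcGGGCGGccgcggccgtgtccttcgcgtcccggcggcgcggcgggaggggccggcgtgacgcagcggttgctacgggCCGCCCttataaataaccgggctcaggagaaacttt

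GATA3 and CEBPB each had 5 GC boxes in the window and TBX21 had 1, whereas 42.6% of 35116 RefSeq windows of that length hold at least 1. The windows contained 26 CpG dinucleotides in GATA3, 17 in TBX21 and 38 in CEBPB, with a G and C content of 73.6%, 63.2% and 77.6%. The table held 6 of the 8 factors, without SPI1 and CEBPD. Both strands of the 6 windows were also searched for a PU.1 core (GAGGAA, in 23.6% of all windows), a GATA motif (AGATAA, 9.17%), a C/EBP motif (TTGCNNAA, 9.05%), a T-box motif (AGGTGTGA, 0.786%) and the octamer (ATGCAAAT, 1.63%), and no match was found. This says only that these letters are not in these windows. With a single motif matched, no 2 motifs overlapped, and the GC box was added after the other searches had found nothing.

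The value of 1 sequenced fragment could be read from the steps between low FPKM values, which fitted 1 common step per library to within 0.0117 on the log2 scale. On this measure the depth of the libraries spanned 6.02-fold, from KM-H2 library 0, the shallowest, to L1236 library 1. In L1236 library 1, L428 library 1 and both PMA-treated libraries, which were the 4 deepest, the translation factor gene EEF1A1 was at 462 to 1211 FPKM against 3884 to 11598 in the other 8, so that depth and this difference in composition went together. Both PMA-treated libraries and neither untreated Reh library were of this type. Fits with this library class as a term are given for the factors after PMA and for named genes that lost a call by it. Of 16 widely used housekeeping genes none was at 0 in any library. Among 8869 genes with at least 1 FPKM in 11 or more libraries, 27 were at 0 in the remaining library. Against the markers of the labelled cells, all 6 Hodgkin cell markers were higher in each cHL line, all 9 B-lineage genes tested were lower in the cHL lines as a group, and stromal and erythroid genes summed to at most 5.03 and 0.373 FPKM in any library.

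SPI1 lies on chromosome 11 (chr11:47376411-47400098, minus strand, GRCh37). Its level in Namalwa was 33.8 and 33.6 FPKM in libraries 0 and 1, and in Reh it was 24.9 and 22.4 FPKM. In KM-H2, L1236 and L428 all 6 values were 0. The groups thus did not overlap, and the deepest library of the series, from L1236, was among those at 0. In bulk RNA, fewer cells with a transcript and less of it per cell cannot be told apart. No ratio can be formed against 0. On the log2(FPKM + 1) scale the cHL mean lay 4.87 below the control mean (limma, standard error 0.11, adjusted p = 1.4e-08, 6 against 4 libraries), and because the cHL values carry no spread this error comes from the Namalwa, Reh and PMA-treated Reh duplicates and from limma's average over genes. The size of this difference depends on the added constant and was -8.15 with a constant of 0.1.

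Of the 6 factors tested, 1 was called lower and 2 were called higher in the cHL lines at an adjusted p under 0.05 and a difference of at least 1, where 10.9% and 13.7% of all 14679 genes were called lower and higher, and 24.6% in either direction. With 3 lines against 2, an exact two-sided permutation test over line means gave p = 0.2 for SPI1 and for GATA3, which is the smallest p it can give over 10 splits. For TCF7 the same permutation test gave p = 0.4. Of the 40 list genes named for this comparison, 36 were not called by limma with the line as unit, at adjusted p-values of 0.071 to 0.65. A statement about cHL lines in general therefore rests on 5 lines, and p-values from the libraries measure the spread between duplicates only.

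**Figure D1:**
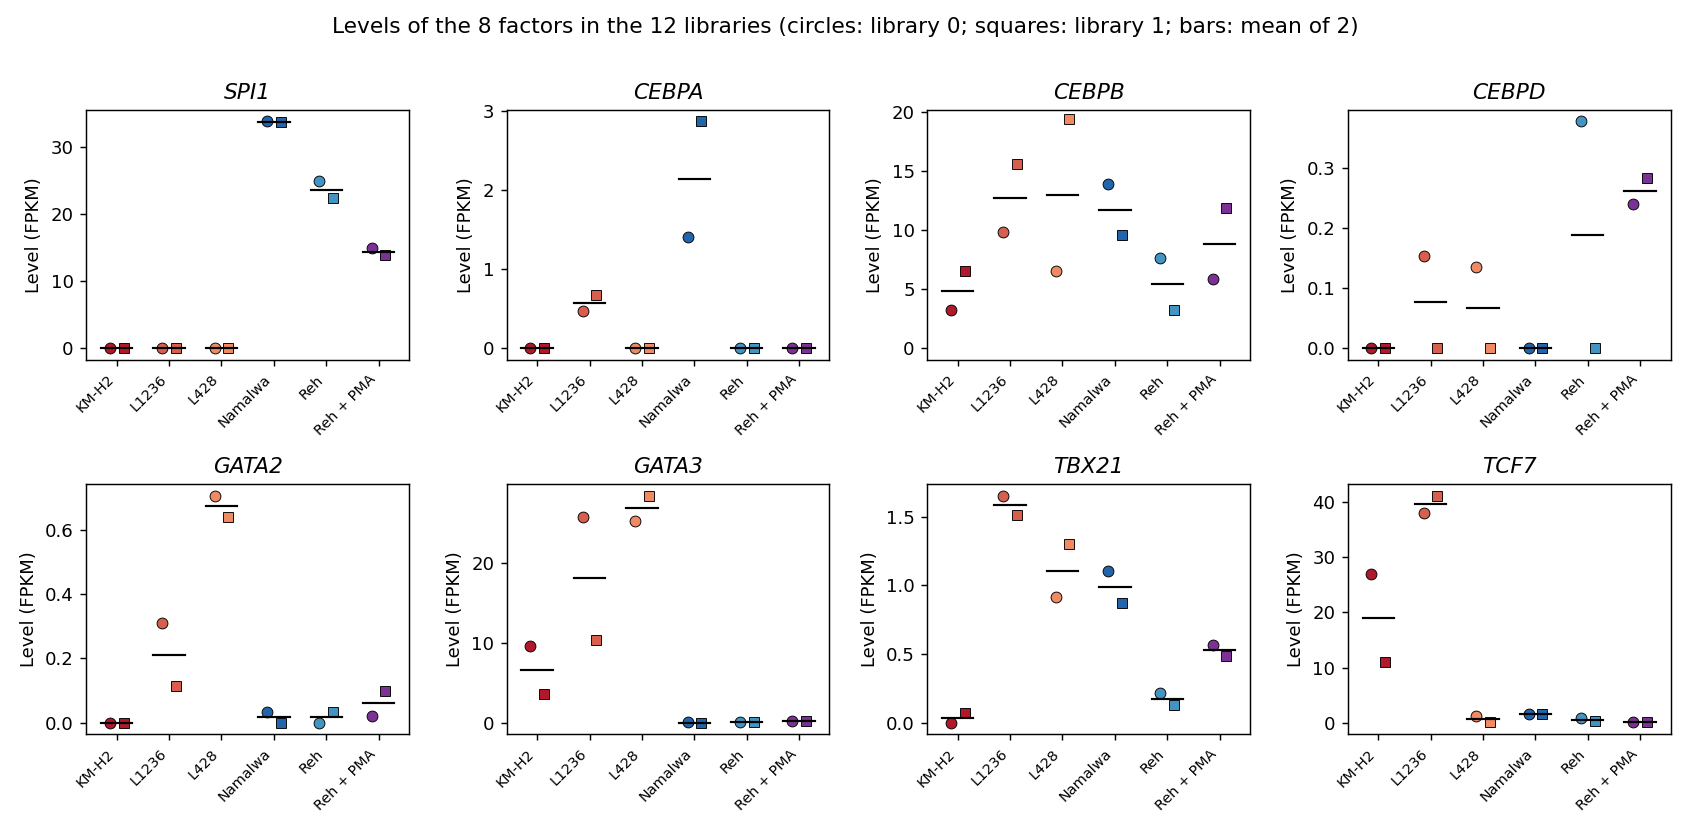
Level in FPKM (y axis, linear, 1 scale per gene) of each factor in the 12 libraries, by cell line (x axis); circles are library 0, squares library 1 and bars the mean of both. SPI1 is at 0 in the 6 cHL libraries and above 13 in all others, GATA3 shows the opposite pattern, and TCF7 is high in KM-H2 and L1236 only.

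PU.1 has 2 close relatives in the ETS family, SPI-B and SPI-C, and all 3 genes were called in the cHL lines, 2 lower and 1 higher. SPIB, a partner and partial substitute of PU.1 in B cells, was at 34.4 and 59.4 FPKM in Namalwa and 9.17 and 6.57 in Reh. It was at 10.6 and 4.96 FPKM in KM-H2, 6.66 and 6.31 in L428, and 0.335 and 0.296 in L1236, giving a cHL difference of -2.21 ± 0.27 (SE, log2 scale, limma adjusted p = 0.00012). SPIB therefore persisted in 2 of the 3 lines that lacked SPI1. SPIC, the factor of red-pulp macrophages, was at 15.2 and 7.63 FPKM in KM-H2 and at 0 in the other 10 libraries. The single line with SPIC thus set the group difference of 1.19 ± 0.16 (limma adjusted p = 0.00018).

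GATA3 (chr10:8087341-8117161, plus strand) was the factor with the widest gap in the other direction. It was at 25.2 and 28.4 FPKM in L428, 25.7 and 10.3 in L1236, and 9.58 and 3.54 in KM-H2, for libraries 0 and 1. In Reh the values were 0.141 and 0.0357 FPKM, and in Namalwa 0.0351 and 0. The lowest cHL value, 3.54 FPKM, was above the highest control value, 0.141 FPKM, so the groups did not overlap. The mean difference was 3.83 ± 0.29 (SE, log2 scale, limma adjusted p = 4.7e-06), and it was called in each line against the controls, at 2.72 ± 0.38 in KM-H2, 4.05 ± 0.38 in L1236 and 4.72 ± 0.38 in L428. These 3 comparisons share their control libraries, and 30.4%, 29.0% and 30.0% of all genes were called in them. The duplicates of KM-H2 and L1236 differed by 2.70-fold and 2.50-fold, and those of L428 by 1.13-fold.

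The order of GATA3 levels ran L428, L1236, KM-H2, PMA-treated Reh, Reh and Namalwa. KM-H2 stood apart from PMA-treated Reh below it, by 2.52 ± 0.44 on the log2 scale (limma adjusted p = 0.0013), where 39.9% of all genes were called. Between KM-H2 and L428 26.6% of all genes were called, and GATA3 was lower in KM-H2 by 2.00 ± 0.44 (limma adjusted p = 0.0068). L1236 and L428 were not separated (difference -0.67 ± 0.44, limma adjusted p = 0.31). KM-H2 was lower than L1236 by 1.33 ± 0.44 with a limma adjusted p of 0.043 (26.6% of all genes called), and this call was lost in 12 of 21 alternatives that kept the pseudocount and also with a pseudocount of 0.1 (limma adjusted p = 0.079). The difference was -0.72 without KM-H2 library 1 and -0.71 without L1236 library 0.

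The antisense gene GATA3-AS1 (chr10:8092413-8095447, minus strand) lies on the other strand within the annotated span of GATA3. It lies upstream of the GATA3 start site used for the printed window (chr10:8096651). It was at 7.42 and 7.10 FPKM in L428, 2.99 and 1.55 in KM-H2, and 0.589 and 0.391 in L1236. It was at 0 in all 6 Namalwa, Reh and PMA-treated Reh libraries. GATA3-AS1 was thus listed in the same lines as GATA3, with KM-H2 and L1236 in the other order. The library kit marked strand, but whether strand was used in counting is not given in the sources used here.

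GATA2 (chr3:128198270-128212044, minus strand) never reached 1 FPKM and was not tested. It was at 0.707 and 0.640 FPKM in L428, 0.310 and 0.114 in L1236, and 0 in both KM-H2 libraries. In the 6 Namalwa, Reh and PMA-treated Reh libraries it ranged from 0 to 0.0992 FPKM, which is at most 5 fragments. L428 thus had the most GATA2. Without the filter on low values, L428 was higher than the controls by 0.72 ± 0.07 (limma adjusted p = 9.0e-05), below the size needed for a call.

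Of the 12 listed GATA factors and partners 6 could be tested, with 2 higher and 2 lower in the cHL lines, and a median difference of -0.04 against 0.02 over all genes. ZFPM1, which encodes the GATA cofactor FOG-1, was higher by 1.46 ± 0.19 (limma adjusted p = 0.00017), its cHL values of 2.10 to 5.28 FPKM lying above the highest control value of 0.696. LYL1 and LMO2, members of the stem cell complex that includes GATA factors, were lower by 4.51 ± 0.15 and 1.67 ± 0.21. LYL1 was at 83.0 and 78.8 FPKM in Reh, 4.16 and 7.18 in Namalwa and at most 0.0921 in any cHL library. LMO2 was at 7.17 and 9.90 FPKM in Reh, but at 0.183 and 0 in Namalwa and at most 0.0621 in the cHL libraries, so that Reh alone set its difference. GATA4, a factor of heart and gut, was at 2.26 and 1.89 FPKM in L428, 0.552 and 0.581 in L1236, and 0 elsewhere. GATA1 and TAL1 reached at most 0.156 and 0.0332 FPKM.

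TCF7 (chr5:133450372-133487556, plus strand) divided the cHL lines. It was at 38.0 and 41.2 FPKM in L1236, 27.0 and 11.0 in KM-H2, and 1.21 and 0.168 in L428. The controls were at 1.49 and 1.62 FPKM in Namalwa and 0.778 and 0.362 in Reh. L428 thus overlapped the controls, and KM-H2 and L1236 lay above every one of them. The difference from the controls was 3.20 ± 0.35 in KM-H2 and 4.35 ± 0.35 in L1236 (limma adjusted p = 7.5e-05 and 1.0e-05), and -0.31 ± 0.35 in L428 (limma adjusted p = 0.51).

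L1236, in which 21.9% of all genes were called against L428, was the higher for TCF7 by 4.66 ± 0.41 (limma adjusted p = 3.2e-05) and KM-H2 higher than L428 by 3.51 ± 0.41 (limma adjusted p = 0.00016). L1236 lay above KM-H2 by 1.15 ± 0.41, which was not called (limma adjusted p = 0.054) but became a call with the column number as a block (limma adjusted p = 0.032). The mean of the 3 cHL lines was 2.41 ± 0.26 above the controls (limma adjusted p = 5.5e-05), a value that KM-H2 and L1236 carried. The gene SKP1 overlaps the end of TCF7 on the other strand and was at 37.8 to 127 FPKM in all 12 libraries, including those in which TCF7 was below 1.

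**Figure D2:**
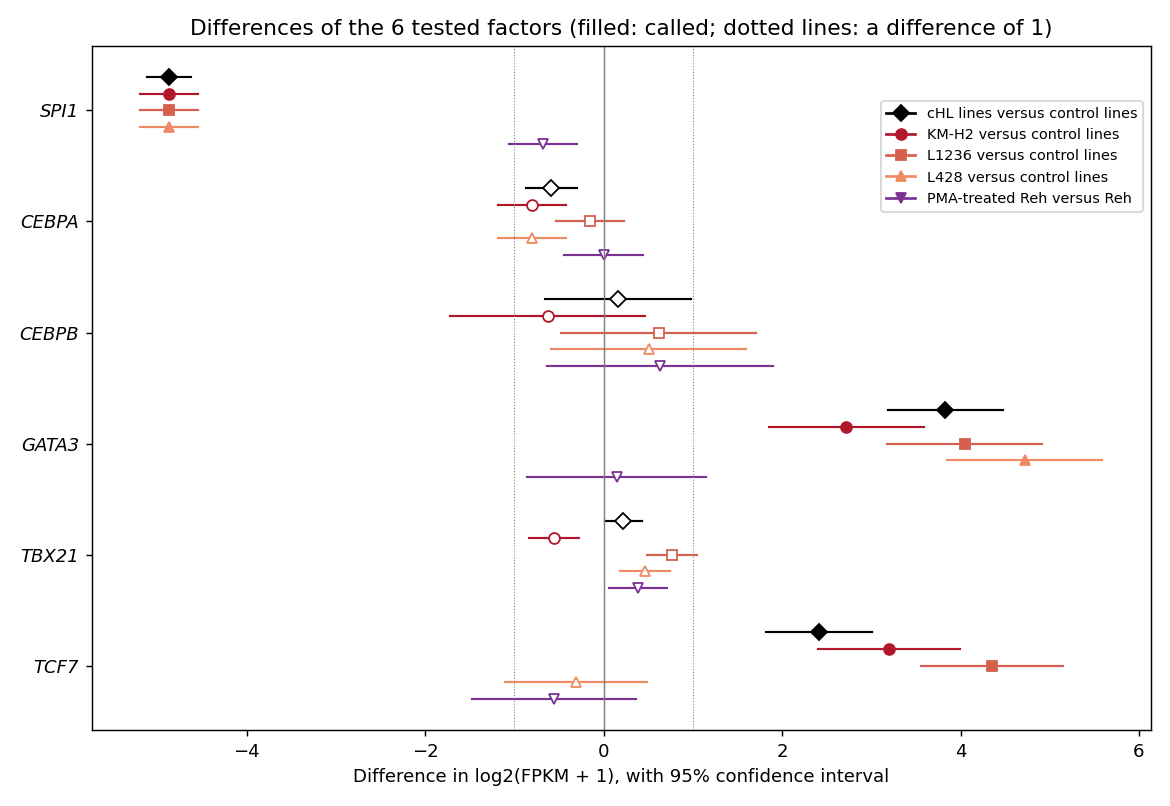
Difference in log2(FPKM + 1) (x axis) of each tested factor (y axis) for 5 comparisons, with 95% confidence intervals from limma; filled symbols passed both thresholds and dotted lines mark a difference of 1. SPI1 lies near -4.87 in all 3 cHL lines, GATA3 is above 2.7 in all 3, TCF7 is above 3 in KM-H2 and L1236 only, and no factor was called after PMA.

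TCF7 and GATA3 thus had different patterns over the cHL lines: L428 lay below KM-H2 for TCF7 and above it for GATA3, for which it was not separated from L1236. LEF1, the other lymphoid factor of the TCF/LEF family, followed another pattern. It was at 243 and 218 FPKM in Reh, 61.3 and 57.7 in Namalwa, 52.5 and 32.9 in KM-H2, 25.6 and 30.1 in L1236, and 4.89 and 3.43 in L428. LEF1 was lower in the cHL lines by 2.68 ± 0.16 (limma adjusted p = 1.1e-06), most of all in L428 (-4.53 ± 0.21), so that L428 was the lowest line for LEF1 and the lowest cHL line for TCF7. TCF7L1 was below 0.3 FPKM in all libraries and TCF7L2 was not called in the cHL lines.

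TBX21 (chr17:45810602-45823488, plus strand) was low throughout. It was at 1.65 and 1.51 FPKM in L1236, 0.912 and 1.30 in L428, 1.10 and 0.868 in Namalwa, 0.212 and 0.130 in Reh, and 0 and 0.0722 in KM-H2. In KM-H2 this is 1 fragment in all, against 24 and 83 in L1236, and the depth behind the highest values is therefore modest. The cHL and control libraries overlapped, and the difference of 0.22 ± 0.09 was not called (limma adjusted p = 0.068). KM-H2 was lower than L1236 by 1.32 ± 0.14 (limma adjusted p = 9.4e-05) and lower than L428 by 1.02 ± 0.14 (limma adjusted p = 0.00053). The second of these fell under the size limit in 5 of 20 alternatives that kept the pseudocount, with values down to -0.88.

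EOMES encodes eomesodermin, the T-box relative of T-bet that is shared by cytotoxic T and natural killer cells. In contrast to TBX21, it was higher in the cHL lines by 3.61 ± 0.28 (limma adjusted p = 5.7e-06). It was at 44.5 and 26.7 FPKM in L1236, 10.5 and 3.79 in KM-H2, 8.73 and 9.63 in L428, 0.267 and 0.335 in Reh, and 0 in Namalwa. No cHL value of EOMES overlapped a control value. Of the 6 T-box and TCF/LEF genes 5 were tested, with 2 higher and 1 lower in the cHL lines and a median difference of 0.22.

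The effector genes of the helper T-cell programmes were examined beside their factors. Of 9 Th2 genes 7 could be tested, and 4 were higher and none lower in the cHL lines, with a median difference of 1.77 against 0.02 over all genes. CCR4, a chemokine receptor of Th2 cells, was at 165 and 155 FPKM in L428, 16.6 and 26.5 in L1236, 10.2 and 5.21 in KM-H2, and at most 0.0686 in the controls. IL5 and IL13, cytokine targets of GATA3 in Th2 cells, were at 21.4 to 34.8 and 13.4 to 19.7 FPKM in L428, against at most 1.30 and 0.745 in any other library. CCR4, IL5 and IL13 were thus all highest in L428, but the other tested Th2 genes were not. IL4 was at 1.11 and 1.40 FPKM in L1236 and at 0 in all other libraries. IL9 was at 0.634 and 2.33 FPKM in KM-H2 and at 0 and 1.26 in L428. MAF was at most 0.0601 FPKM in L428 and 1.15 in KM-H2, and was highest after PMA, at 4.06 and 2.91. IL1RL1, the receptor for interleukin 33, followed L1236 and L428 (8.37 to 27.3 FPKM) and was at most 0.154 in KM-H2.

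Of 10 Th1 genes 6 could be tested, and 4 were again higher and none lower, with a median difference of 1.89. CCL5 was higher by 3.68 ± 0.23, STAT4 by 2.64 ± 0.29, RUNX3 by 2.46 ± 0.21 and CXCR3 by 1.33, in the cHL lines as a group. STAT4, which transmits interleukin 12 signals upstream of T-bet, was at 22.9 and 46.9 FPKM in L428, 2.19 and 6.93 in KM-H2 and 0.318 and 1.24 in L1236. IFNG, the main target of T-bet in Th1 cells, reached 2.87 FPKM in L428 library 1 and at most 0.421 elsewhere, and was not tested.

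The general T-lineage list did not move as a block. Of 18 genes 10 were tested, with 3 higher, 2 lower and 5 not called in the cHL lines, and a median difference of 0.51. THEMIS, a T-cell receptor signalling adaptor, was at 85.8 and 84.6 FPKM in L428, 32.5 and 13.3 in KM-H2, and under 1 in all other libraries. CD4 (46.0 to 54.5 FPKM) and CD3D (13.5 to 22.5 FPKM) were highest in KM-H2, and CD3D was at 0 in the other 10 libraries. LCK, the T-cell SRC kinase, was lower in the cHL lines by 2.59 ± 0.31, being at 3.14 to 7.20 FPKM in the controls. CD3E, a defining T-cell marker, did not exceed 0.197 FPKM anywhere. In KM-H2 alone, 5 of the 10 tested genes were higher and 1 lower than in the controls, with a median of 1.22. In L1236 1 was higher and 1 lower, and in L428 1 was higher and 2 lower. Over all genes, 30.4%, 29.0% and 30.0% were called in these comparisons. ZAP70 was at 6.80 and 8.67 FPKM and CD3G at 3.25 and 2.85 in KM-H2, against at most 0.414 and 0.0897 elsewhere. The summed level of the list was 96.6 to 114 FPKM in KM-H2 and 88.1 to 89.5 in L428, against 5.73 to 5.78 in L1236.

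**Figure D3:**
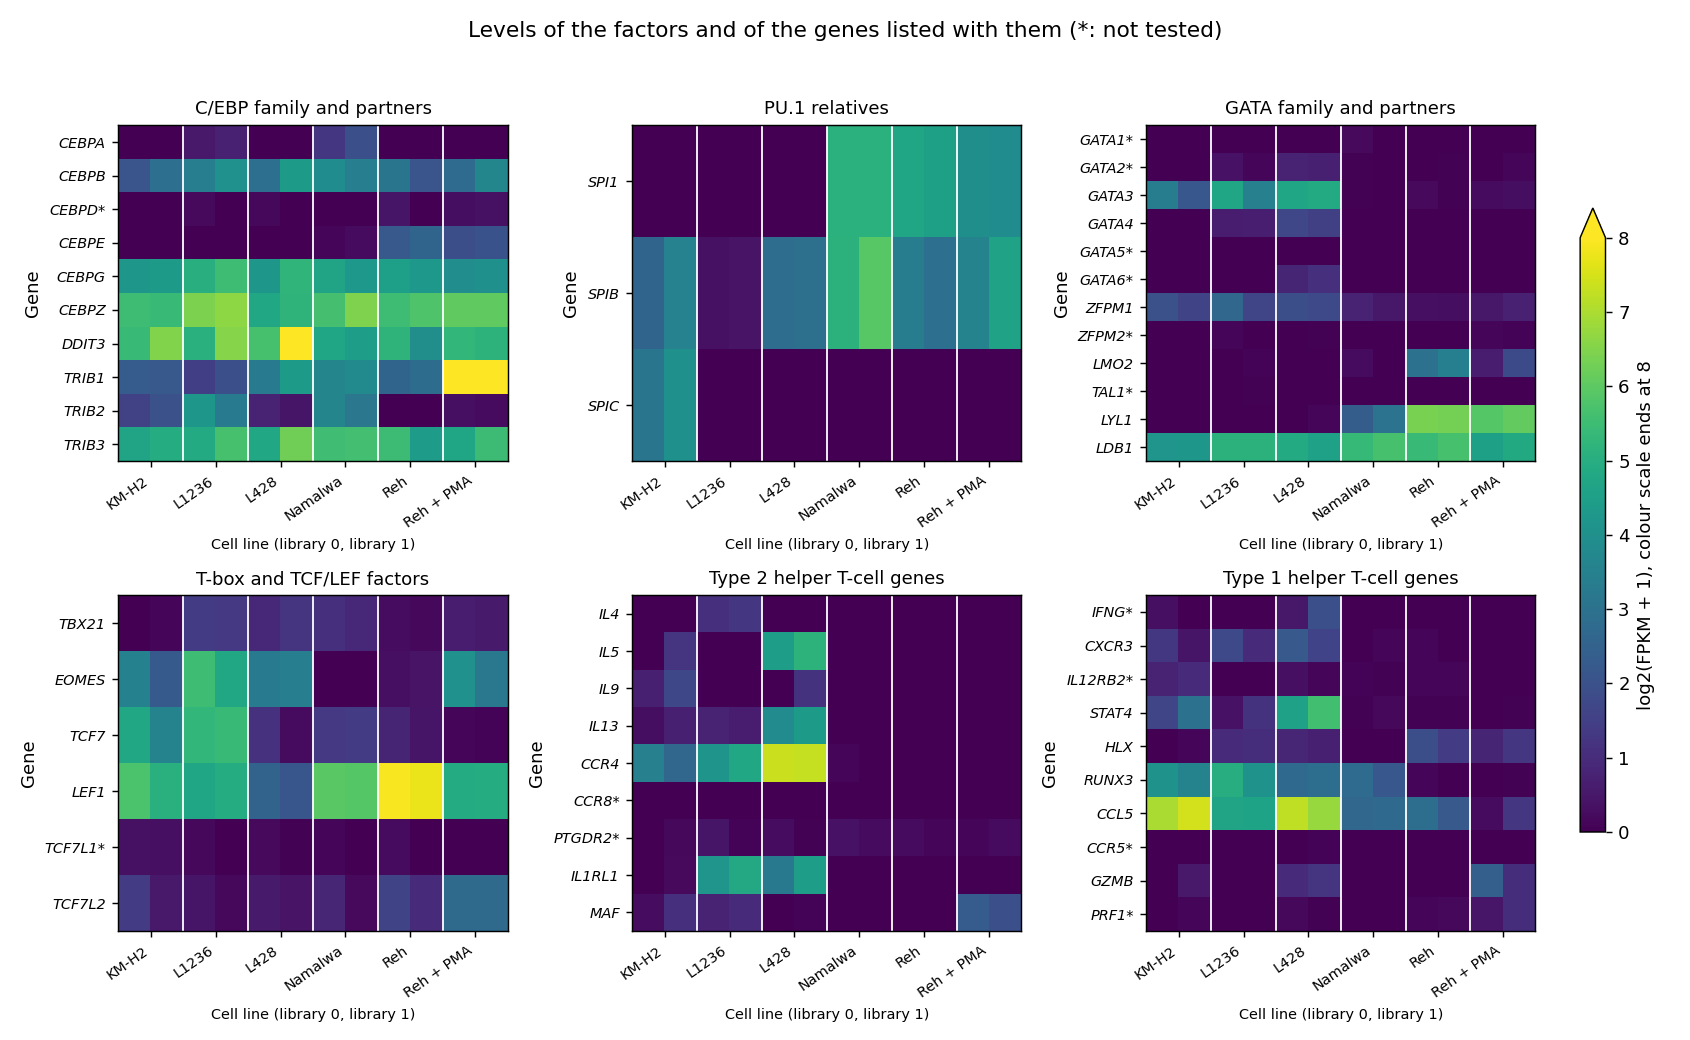
Level as log2(FPKM + 1) (colour) of the factors and of the genes listed with them (rows) in the 12 libraries (columns, library 0 then library 1 of each line); asterisks mark genes not tested. SPI1 is dark in the cHL columns, GATA3, EOMES and CCR4 are dark in the controls, SPIC appears in KM-H2 only, and TRIB1 is at the top of the scale after PMA.

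CEBPB (chr20:48807367-48809205, plus strand) was the myeloid factor present in every library. It was at 9.82 and 15.6 FPKM in L1236, 6.55 and 19.4 in L428, 3.28 and 6.51 in KM-H2, 13.9 and 9.64 in Namalwa, and 7.69 and 3.27 in Reh, for libraries 0 and 1. The groups overlapped over nearly their whole range. The difference was 0.16 ± 0.36 on the log2 scale with a 95% interval of -0.65 to 0.98 (limma adjusted p = 0.72), so changes within that interval cannot be told from none. Its sign changed with the libraries used. The duplicates differed by 1.44-fold to 2.96-fold, and in all 3 cHL lines library 1 was the higher. The antisense gene CEBPB-AS1 ranged from 0 to 2.15 FPKM.

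CEBPA (chr19:33790840-33793440, minus strand), the factor of granulocyte commitment, was at 1.41 and 2.87 FPKM in Namalwa and 0.471 and 0.676 in L1236. It was at 0 in the other 8 libraries. The 2 lines that had it were thus a Burkitt and a cHL line. Namalwa was higher than Reh by 1.61 ± 0.20 (limma adjusted p = 0.00026), in a comparison that called 19.0% of all genes. In the cHL lines against the controls the difference of -0.59 ± 0.13 passed the p threshold (limma adjusted p = 0.0035) but not the size, and it became a call, at -1.29, with a constant of 0.1.

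CEBPD did not exceed 0.379 FPKM and was not tested. It was at 0 in 7 of 12 libraries, and the others held 1 to 5 fragments, so that no difference was detectable at this depth. CEBPE, a late granulocyte factor, was at 3.71 and 5.01 FPKM in Reh, 2.78 and 3.03 after PMA, 0.0742 and 0.169 in Namalwa, and 0 in all 6 cHL libraries. Its difference of -1.29 ± 0.09 was called (limma adjusted p = 4.3e-06).

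Of the 10 C/EBP genes and partners 9 were tested, with 1 higher and 1 lower in the cHL lines and a median of -0.05. The gene called higher was DDIT3, which encodes CHOP, the stress-induced inhibitor of C/EBP factors. It was higher by 1.60 ± 0.50 (limma adjusted p = 0.023), but library 1 exceeded library 0 in each cHL line, at 257 against 50.0 FPKM in L428. DDIT3 lost its call in 8 alternatives, 5 of which left out a single cHL or control library (without Reh library 1, limma adjusted p = 0.10). The 8 included the fit without the 3 cHL libraries numbered 1 (0.77, limma adjusted p = 0.13) and that with the library class as a term (0.96, limma adjusted p = 0.041, under the size limit).

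The myeloid genes that PU.1 and C/EBP factors serve moved in both directions. Of 28 effector genes 14 were tested, with 3 higher, 4 lower and 7 not called in the cHL lines, and a median difference of 0.10. CYBB, the catalytic subunit of the phagocyte oxidase and a PU.1 target, was lower by 3.76 ± 0.20. Its level was 36.2 and 45.1 FPKM in Namalwa and 14.2 and 22.5 in Reh against 0 to 7.01 in the cHL libraries. LST1 and AIF1, expressed by monocytes, were lower by 3.06 and 2.57, which Reh alone set. LST1 was at 81.5 and 119 FPKM in Reh but at 0.238 and 0.548 in Namalwa, against 0 to 1.49 in the cHL libraries. AIF1 was at 111 and 172 FPKM in Reh and at 1.56 and 2.02 in Namalwa, below the 7.12 and 11.8 of KM-H2.

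Among the inflammatory genes known as C/EBP targets 6 of 10 were tested, with 3 higher and 1 lower. The lower one, IL1B, lay just past the size limit and lost its call in 12 alternatives, and PTX3, among the higher ones at 1.01, in 5. IL6 was at 42.7 and 60.9 FPKM in L1236, 4.31 and 10.3 in L428, 2.09 and 4.37 in KM-H2, and 0 in all controls. Its difference from the controls was 3.56 ± 0.24 (limma adjusted p = 2.6e-06). CCL2 was at 526 and 584 FPKM in L1236 and 0 in the other cHL and control libraries, and PTX3 was seen mainly in KM-H2. FCER1A, the mast cell receptor chain, was at 293 and 295 FPKM in L1236 and at most 0.106 elsewhere, while KIT, a defining mast cell marker, did not exceed 0.164 FPKM in any library.

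Treatment of Reh with PMA altered none of the 6 factors beyond the thresholds, whereas 22.2% of all genes were called. SPI1 went from 24.9 and 22.4 FPKM in Reh to 14.9 and 13.9 with PMA. This difference of -0.68 ± 0.17 passed the p threshold (limma adjusted p = 0.015) but was smaller than 1, and with the library class as a term the difference was the same, -0.68, with a limma adjusted p of 0.082. The SPI1 level in PMA-treated Reh thus remained far from the 0 seen in the cHL lines, by 3.94 ± 0.17 against KM-H2 (limma adjusted p = 2.3e-07). GATA3 was at 0.179 and 0.232 FPKM after PMA, a difference of 0.15 ± 0.44 (limma adjusted p = 0.88), with a value that stayed under the lowest cHL value. TCF7 was at 0.0730 and 0.0460 FPKM (-0.55 ± 0.41, limma adjusted p = 0.34), and TBX21 at 0.566 and 0.484 FPKM (0.38 ± 0.14, limma adjusted p = 0.071).

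CEBPB was at 5.89 and 11.9 FPKM after PMA against 7.69 and 3.27 before, and these ranges overlapped (0.63 ± 0.56, limma adjusted p = 0.45). With the library class as a term the sign turned to -0.40, and the differences were 0.69 for GATA3, -0.15 for TCF7 and 0.29 for TBX21, none of them called. CEBPA stayed at 0, and in the treated and untreated Reh libraries CEBPD and GATA2 did not exceed 0.379 and 0.0992 FPKM.

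Several relatives of the factors were called after PMA although the factors were not. TRIB1, a pseudokinase that directs the degradation of C/EBPα, was at 460 and 401 FPKM against 4.95 and 6.09 in Reh, a difference of 6.05 ± 0.32 (limma adjusted p = 4.1e-06). EOMES was higher by 3.25 ± 0.43, LEF1 was lower by 2.91 ± 0.24 and LMO2 lower by 2.03 ± 0.32. The LMO2 call was lost when only the 2 groups were fitted (limma adjusted p = 0.066). CSF1R, the macrophage growth factor receptor and a PU.1 target, was at 11.8 and 11.2 FPKM against 0.285 and 0.202 (3.33 ± 0.21). MPO, the granulocyte peroxidase, went the other way, from 24.8 and 32.0 to 6.44 and 5.00 FPKM, but this call was lost in 13 alternatives.

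After PMA 1 of 14 myeloid effector genes was called higher and 3 lower, each of the lower ones losing its call in 7 to 13 alternatives. Over all lists, 4 of 25 genes named for PMA lost their call with the library class as a term (CCL5, CYBB, GZMB and PAX5). Of the inflammatory C/EBP targets CCL3 and CXCL8 were higher by 8.93 and 5.06. In the T-lineage list 2 of 10 genes tested were higher, among them BCL11B by 1.42, and TPSAB1, a mast cell tryptase, was at 19.2 and 39.4 FPKM after PMA and at 0 in the other 10 libraries. All 5 PMA response genes tested were higher, as the label of these libraries implies. The 2 treated libraries were both of the deep type with low EEF1A1, and the library class term was estimated from L1236 and L428, which had 1 library of each type.

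The order of the 6 groups was tested for each factor between neighbours, which gave 30 pairs, and 4 of them passed both thresholds. They were SPI1 in PMA-treated Reh above KM-H2, GATA3 in L1236 above KM-H2 and in KM-H2 above PMA-treated Reh, and TCF7 in KM-H2 above Namalwa, where 30.4% of all genes were called. No neighbours were separated for CEBPA, CEBPB or TBX21.

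For each tested factor the genes with the most similar pattern over the 12 libraries were listed by Pearson's r on the log2 scale, as a description, since libraries share lines and depth. SPI1 was most like BTK (r = 0.995), ZNF525 and SLC17A9, and BTK, the B-cell receptor kinase, reached 57.0 FPKM. GATA3 was most like MAGI1 (r = 0.990), LINC01605 and ACOXL, and TCF7 most like ANKRD65 (r = 0.981), PEX5L and JPH4. CEBPA was most like TNFRSF17 (r = 0.982), the plasma cell receptor BCMA, and TBX21 most like LOC100288152 (r = 0.970). CEBPB was most like TRIB3 (r = 0.893), a stress-induced pseudokinase, the weakest of the 6 best matches.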

How the data were processed

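RNA-Seq libraries were prepared by the authors in duplicate from total RNA with a stranded, ribosome-depleted kit. Per the labels and processing notes, TopHat2 2.0.11 and Cuffnorm 2.2.1 were used with hg19 (GRCh37). The deposited values are gene-level FPKM, fragments per kilobase scaled to mapped fragments, as normalized by the authors. Read totals are not given in the sources used here. Columns carry the numbers 0 and 1, which do not match the replicate numbers in the labels, so each was assigned to its group only.

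Genes with at least 1 FPKM in at least 2 of 12 libraries were tested (14679 of 26210) on log2(FPKM + 1) in 1 fit of 6 groups with limma 3.58.1 (trend, moderated statistics) in R 4.3.3. P-values were adjusted by Benjamini-Hochberg over all genes, and a call needed an adjusted p under 0.05 and a difference of at least 1. Fold changes on this scale understate those of low genes. CEBPD and GATA2 did not pass the filter. On simulated data the fit was checked before use. Correlations of the duplicates' deviations exceeded 0.1 in 6 of 15 pairs of groups. These were all 3 pairs of cHL lines (0.30 to 0.68), Namalwa with Reh (0.36), and Namalwa with KM-H2 (0.19) and L1236 (0.17). The column numbers were therefore not taken to pair the libraries over all groups. They did go with a shared deviation within the cHL lines and between Namalwa and Reh. Rank correlations of duplicates were 0.929 to 0.936 in the cHL lines and 0.962 to 0.969 in the others, and no gene above 0 had identical values in duplicates. Whether duplicates came from separate cultures is not stated, so p-values measure the spread between duplicates, which may be technical.

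Named genes were the 8 factors, up to 4 called genes with the largest difference in each list of relatives or target genes and further listed genes that check a cell type, and the 3 genes most like each tested factor. IFNG, GATA1, GATA4, TAL1, TCF7L1 and TCF7L2 were named after their values were seen. The members, lists and motifs were chosen with earlier results of these data known. Lists were described by counts and medians without a test. Alternatives comprised other pseudocounts and filters, quantile normalization, fits on the compared groups, a block for column number, the line as unit, and leaving out each library. Library class, array weights and leaving out 3 cHL libraries were added after seeing the data. Gene positions are from GENCODE v44 lifted to GRCh37. The duration of PMA treatment for these libraries is not given in the labels. Some listed genes are counted but not reported here by name.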

Additional observations from a re-analysis of the deposited data

Results flagged for a closer look

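For 3 factors the cHL lines differed from each other under the same contrast with the controls, by a direct test of the difference. For GATA3, KM-H2 lay below L428 by a difference of -2.00 on the log2 scale (limma adjusted p = 0.0068), and both libraries of KM-H2 were below both of L428. For TBX21 the difference of KM-H2 from L1236 was -1.32 (limma adjusted p = 9.4e-05), with KM-H2 at 1 fragment in 2 libraries. For TCF7 the difference of L1236 from L428 was 4.66 (limma adjusted p = 3.2e-05). All 3 calls held in every alternative that kept the pseudocount. With 1 line for each pattern, a property of the line and of its duplicates cannot be told apart.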

How the results depend on the processing

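With the line as unit, 80 genes were called between cHL and control lines in place of 3614, because the fit then has 5 values. SPI1 was still called, while GATA3 (adjusted p = 0.11) and TCF7 (adjusted p = 0.49) were not, by limma. Leaving out each library gave 3473 to 3841 calls for the cHL lines, 4282 to 4689 for KM-H2, 3834 to 4320 for L1236, 3883 to 4935 for L428 and 2082 to 3363 for PMA, the lowest without library 0 of PMA-treated Reh (2168 without library 0 of Reh). It gave 3 to 5 separated neighbours in the order of groups, against 4, and a pseudocount of 0.1 gave 7. With the column number as a replicate block, the calls were 3643, 4506, 4317, 4471 and 3456, and 5 neighbours were separated, the one gained being TCF7 in L1236 above KM-H2, and no member's call against the controls or after PMA changed. For SPI1, GATA3 and TCF7 no call against the controls was lost in 22 alternatives that kept the pseudocount, other than with the line as unit.

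The sign turned for values that were not called. For the cHL lines, CEBPB was -0.075 without L428 library 1 and ranged from -0.092 (without Reh library 1) to 0.42 when 1 library was left out, was -0.18 with the library class as a term and -0.31 without the 3 cHL libraries numbered 1, and TBX21 was -0.0021 after quantile normalization. In L428, CEBPB ranged from -0.21 to 1.22 when 1 library was left out and was -0.21 without library 1 (alone or with the other cHL libraries numbered 1) and -0.0099 with the class term, and TCF7 ranged from -0.77 to 0.15, the latter without library 1 (likewise). In L1236, CEBPA was 0.53 with a pseudocount of 0.1 and ranged from -0.33 to 0.017 when 1 library was left out, the latter without Namalwa library 1. After PMA, CEBPB was -0.40 with the class term. With a pseudocount of 0.1, CEBPA (in the cHL lines, KM-H2 and L428) and TBX21 (in KM-H2, L1236, L428 and after PMA) became calls. The cause was not tested. CEBPA, CEBPD, GATA2 and TBX21 were below 3 FPKM throughout, which limits what could be detected for them.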
